A study of Penicillium oxalicum with 6 samples.

Results

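The genes POX_c04700 to POX_c04731 of *Penicillium oxalicum*, a filamentous fungus that secretes starch- and cellulose-degrading enzymes, were described in order of their number along chromosome c. These 32 of the 9822 genes in the tables were taken by number alone, but the stretch was selected on the FPKM values of the same 6 libraries: some of its genes had been seen to be high in the parental libraries Δ*ku70* replicates 1 and 2 and low in Δ*ku70* replicate 3 and in all 3 Δ*rsrC* libraries. These values are therefore given as a description, and no test on a member is offered as support. All 32 IDs were found in the RefSeq gene table of assembly ASM172317v3, where each is protein-coding and their order follows their number. That table places 4 tRNA genes and 1 rRNA gene between them, no overlap between neighbours, and the α-amylase gene *amy13A* (POX_c04732) as the next gene after POX_c04731.

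RNA-seq was carried out on mycelium of 2 strains, with 3 libraries each. Δ*ku70* is the parent and lacks *ku70*, a gene of non-homologous end joining. Loss of this gene favours targeted gene replacement. The genotype of Δ*ku70* is labelled WT. Δ*rsrC* carries the same *ku70* deletion and in addition lacks *rsrC*, which the labels name by an older gene number, POX00418, and the study as POX_a01508, the gene of a zinc-finger transcription factor. For both strains mycelium was pre-grown in glucose for 24 h and harvested 24 h after transfer to an enzyme production medium. The labels give that medium as Avicel, a cellulose, in one field and raw starch in another, and the study as commercial corn starch. The study speaks of 3 biological replicates for its Δ*rsrA* and Δ*rsrB* transcriptomes, and its text does not say so for the Δ*rsrC* comparison. Whether the 3 Δ*rsrC* libraries came from 1 transformant is not given in the sources used here.

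In filamentous fungi, genes that serve 1 pathway often lie side by side and are transcribed together, as in the clusters for secondary metabolites, which frequently hold the gene of their own transcription factor. In *Aspergillus*, the gene of the starch-responsive activator AmyR lies beside genes of an α-amylase and an α-glucosidase. Physical neighbourhood alone does not make genes transcribe together, and tRNA genes or silent genes can lie between them. The products of the 32 genes are largely unnamed. The study's supplement gives the members it annotates, among them POX_c04719, POX_c04723, POX_c04724, POX_c04725, POX_c04726, POX_c04727 and POX_c04731, as hypothetical proteins, and its list of putative transcription factor genes includes POX_c04728.

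Transcript levels are given in FPKM, which counts the sequenced fragments of a gene relative to how long it is and how deep its library was read. Because of the length scaling, levels of different genes are set side by side on it. The deleted gene *rsrC* had 27.1 to 39.0 FPKM in the parent and 0 in every library of the deletion strain. Absolute depth is unknown. Relative depth, read from the spacing of low values, ranged from 77.8% to 105% of that of Δ*ku70* replicate 1. Across the 8605 genes whose mean reached 1 FPKM, here called tested genes, log2(FPKM + 1) correlated with a Pearson's r of 0.975 between Δ*ku70* replicates 1 and 2, and 0.960 and 0.958 between these and replicate 3. It was 0.974 to 0.977 among the Δ*rsrC* libraries and 0.903 to 0.938 between strains. Genes are not independent replicates, so these values only describe the libraries. Δ*ku70* replicate 3 therefore stood slightly apart from the other parental libraries, and results that rest on it are given with and without it.

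**Figure D1:**
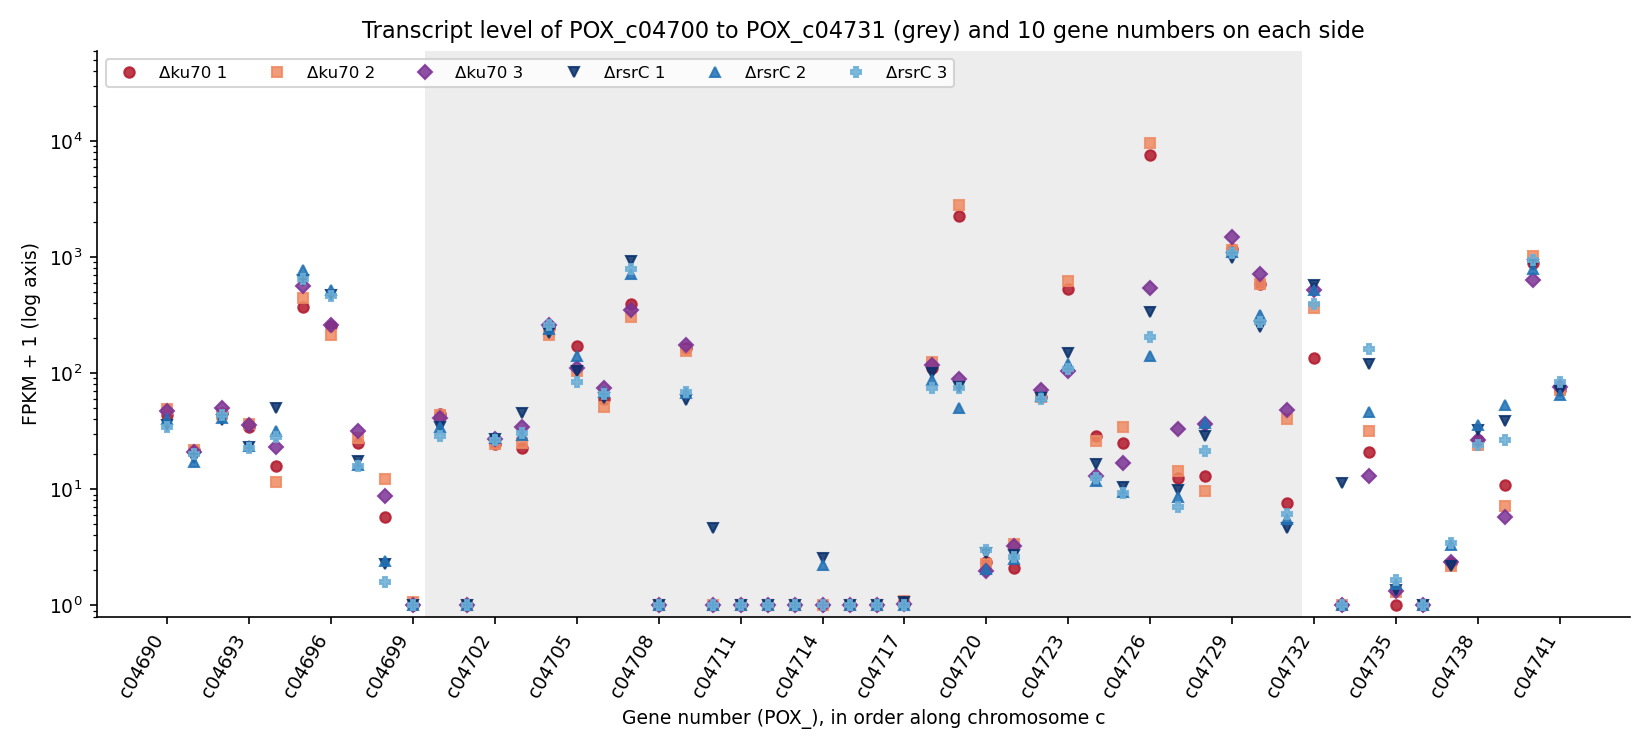
Transcript level (FPKM + 1, log axis) of POX_c04700 to POX_c04731 (grey band) and of the 10 gene numbers on each side, by gene number, with 1 symbol per library. The red and orange symbols of Δ*ku70* replicates 1 and 2 stand far above the others at POX_c04719 (2259.6 and 2784 FPKM) and POX_c04726 (7621 and 9561 FPKM), and less so at POX_c04723, while at POX_c04718 and POX_c04720 to POX_c04722 they do not stand apart.

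The high values of Δ*ku70* replicates 1 and 2 were carried by 3 genes that do not adjoin each other. These were POX_c04719, POX_c04723 and POX_c04726, which span 8 gene numbers. The word neighbourhood therefore holds for their position, but the stretch did not vary as a block. A gene was counted as sharing the pattern where the lower of Δ*ku70* replicates 1 and 2 was at least 2 times the highest of the other 4 libraries, on FPKM + 1. This ratio is called the separation. Of the 22 members whose mean reached 1 FPKM, 3 met this criterion (13.6%), against 0.5% of the 8605 tested genes. The members were taken from this stretch for that pattern, so nothing is read from the difference. The other 10 members were too low to be counted.

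POX_c04726 was the most highly expressed of the 32 genes in Δ*ku70* replicates 1 and 2. It was at 7621, 9561 and 542 FPKM in parental replicates 1, 2 and 3, against 338, 138 and 206 FPKM in Δ*rsrC* replicates 1, 2 and 3. The first 2 parental libraries were thus far above the other 4. It ranked 17th and 9th of all genes in these 2 libraries, 401st in Δ*ku70* replicate 3, and between 705th and 1567th in Δ*rsrC*. The mean of Δ*ku70* replicates 1 and 2 was 15.9-fold above replicate 3 and 37.8-fold above the Δ*rsrC* mean. The strains did not overlap, since Δ*ku70* replicate 3 lay above all 3 Δ*rsrC* libraries, at 2.38-fold their mean. The separation was 14.0.

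POX_c04719 had almost the same profile at a lower level. It was at 2259.6, 2784 and 88.2 FPKM in parental replicates 1, 2 and 3, against 75.0, 48.8 and 73.1 FPKM in Δ*rsrC* replicates 1, 2 and 3. Its separation of 25.3 was the largest in the stretch. The mean of Δ*ku70* replicates 1 and 2 was 28.6-fold above replicate 3 and 38.4-fold above the Δ*rsrC* mean. Here too Δ*ku70* replicate 3 lay just above the highest Δ*rsrC* library, so that the strains did not overlap.

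POX_c04723 shared the pattern in a weaker form. It was at 526, 623 and 103 FPKM in parental replicates 1, 2 and 3, against 149, 119 and 107 FPKM in Δ*rsrC* replicates 1, 2 and 3. Δ*ku70* replicate 3 was the lowest of the 6 libraries, below every Δ*rsrC* library, so the strains overlapped. The mean of Δ*ku70* replicates 1 and 2 was 5.60-fold above replicate 3 and 4.60-fold above the Δ*rsrC* mean. Its separation was 3.52, the smallest of the members inside the threshold.

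Δ*ku70* replicate 2 was above replicate 1 in each of the 3 genes, by 1.23-fold, 1.19-fold and 1.25-fold in gene order. The ratio of POX_c04726 to POX_c04719 was 3.37 and 3.43 in these 2 libraries, 6.14 in Δ*ku70* replicate 3 and 2.81 to 4.51 in Δ*rsrC*. These ratios stayed within 2.81 to 6.14 while the levels themselves differed far more. The ratio of POX_c04726 to POX_c04723 did not, at 14.5 and 15.3 in Δ*ku70* replicates 1 and 2, 5.28 in replicate 3 and 1.16 to 2.28 in Δ*rsrC*.

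Just outside the threshold stood POX_c04724 and POX_c04725, which lie between POX_c04723 and POX_c04726. POX_c04724 was at 28.0, 25.2 and 11.9 FPKM in parental replicates 1, 2 and 3, against 15.4, 10.8 and 11.5 FPKM in Δ*rsrC*. Both high libraries were above the rest, with a separation of 1.60, and Δ*ku70* replicate 3 lay within the Δ*rsrC* range. POX_c04725 was at 24.1, 33.4 and 15.9 FPKM in the parent and at 9.41, 8.40 and 8.32 FPKM in Δ*rsrC*. Its separation was 1.48, and Δ*ku70* replicate 3 lay between the other parental libraries and Δ*rsrC*, 1.82-fold above the Δ*rsrC* mean.

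**Figure D2:**
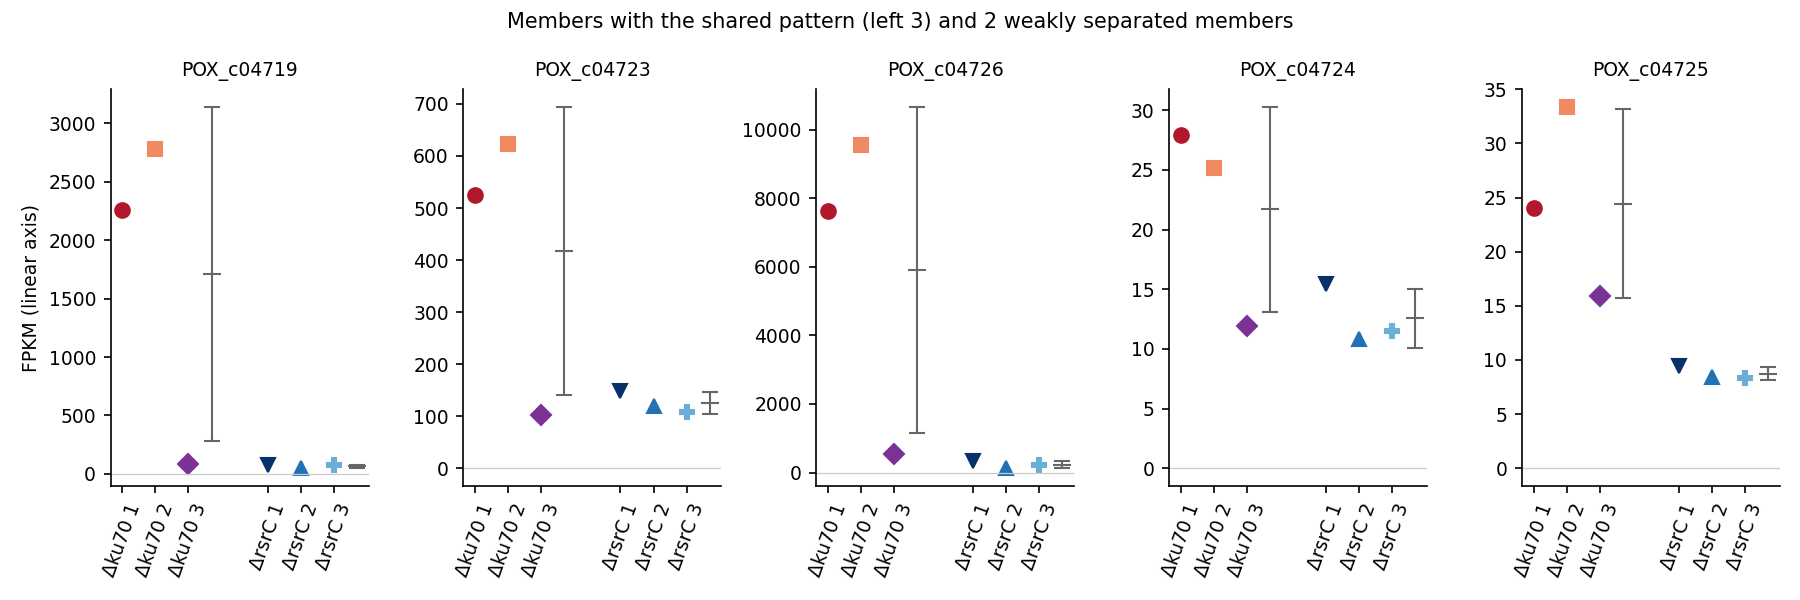
FPKM (linear axis from 0, its own scale in each panel) in each library of the 3 members with the shared pattern and of POX_c04724 and POX_c04725, with the mean ± SD of the 3 libraries of a strain as a grey bar beside them. In the left 3 panels Δ*ku70* replicate 3 sits with the Δ*rsrC* libraries, and the SD of the parent is large beside its mean (5908 ± 4747 FPKM, n = 3, for POX_c04726). In the right 2 panels the libraries are closer, between 8.32 and 33.4 FPKM.

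The reach of the pattern was read from gene to gene. With any separation above 1 accepted, POX_c04723 to POX_c04726 formed a run of 4 genes, and 6 members met the criterion (27.3% of 22, against 19.2% of all tested genes), the other 2 being POX_c04719 and POX_c04700. POX_c04700 was at 39.9 to 43.9 FPKM in the parent and 27.7 to 33.6 FPKM in Δ*rsrC*, and its separation of 1.07 is hardly above equality with Δ*ku70* replicate 3. At a separation of 2 the longest run was 1 gene. At 4, POX_c04719 and POX_c04726 were left.

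POX_c04718, just before POX_c04719, and POX_c04720 to POX_c04722, between it and POX_c04723, did not share the pattern. POX_c04718, the gene before POX_c04719, was at 110, 123 and 116 FPKM in the parent and at 99.0, 86.6 and 73.0 FPKM in Δ*rsrC*. POX_c04720 and POX_c04721, the genes after it, were at 0.99 to 1.97 and at 1.10 to 2.38 FPKM over the 6 libraries. POX_c04722, the gene before POX_c04723, was at 59.2 to 71.2 FPKM. In all 4 the lower of Δ*ku70* replicates 1 and 2 stayed below the highest of the other libraries, with separations of 0.65 to 0.95. The pattern therefore stopped on both sides of POX_c04719 and before POX_c04723 within 1 gene.

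**Figure D3:**
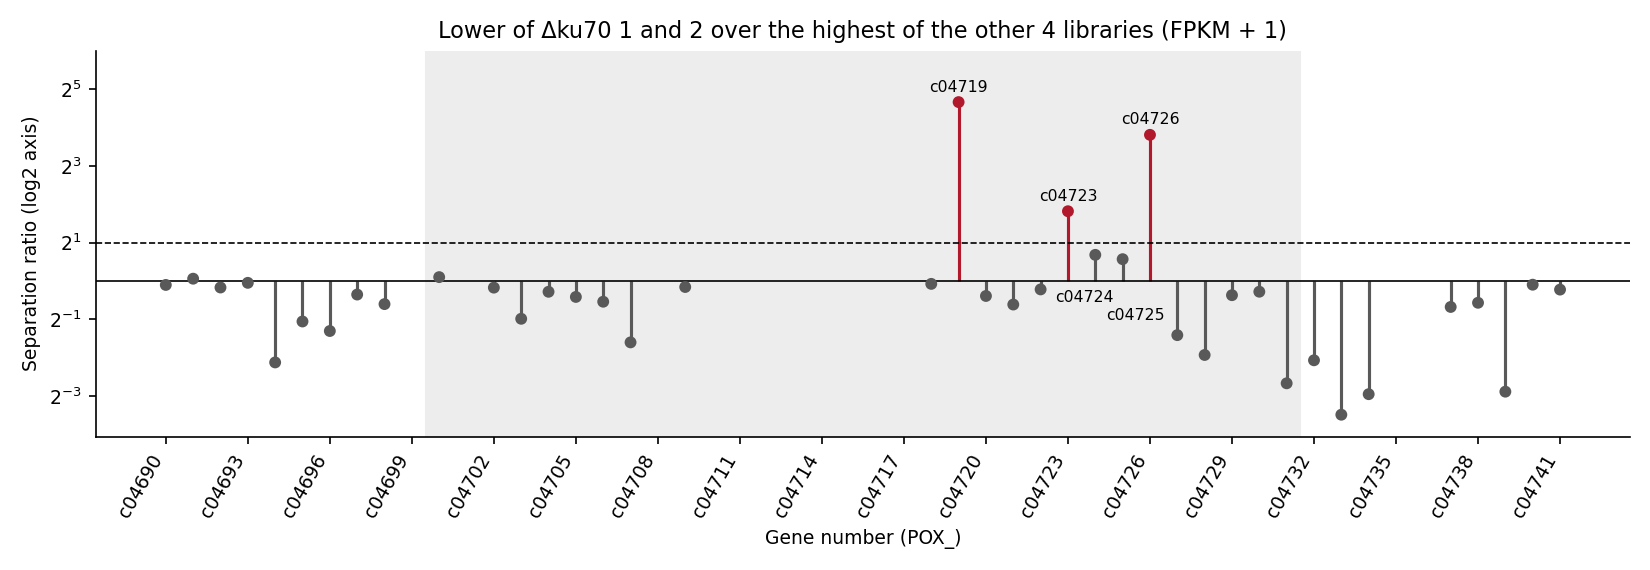
Separation (the lower of Δ*ku70* replicates 1 and 2 over the highest of the other 4 libraries, FPKM + 1, log2 axis) by gene number for each gene whose mean reached 1 FPKM. The dashed line marks the 2-fold criterion and the solid line equality. POX_c04719 (25.3), POX_c04726 (14.0) and POX_c04723 (3.52) exceed 2, and genes between and beyond them stand near or below 1, with POX_c04724 (1.60) and POX_c04725 (1.48) in between.

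The first part of the stretch, POX_c04700 to POX_c04709, showed little difference between parental libraries. Of its 8 tested genes, POX_c04702, POX_c04704 and POX_c04706 had means of 24.4, 239 and 61.0 FPKM in the parent and 26.1, 239.8 and 64.5 FPKM in Δ*rsrC*, with overlap. POX_c04703 and POX_c04705 also overlapped between strains. In 3 genes, POX_c04700, POX_c04707 and POX_c04709, the strains were apart with the 3 parental libraries together, and in POX_c04700 the gap was small. POX_c04707 was at 392, 302 and 351 FPKM in the parent and at 920.4, 719 and 794 FPKM in Δ*rsrC*. POX_c04709 was at 165, 154 and 173 FPKM in the parent and at 58.1, 66.6 and 68.3 FPKM in Δ*rsrC*. POX_c04707 and POX_c04709 lie close together and went opposite ways, 2.33-fold higher and 2.55-fold lower in Δ*rsrC* by the means.

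A block of genes at or near 0 lay between these and the high genes. The 8 genes POX_c04710 to POX_c04717, with POX_c04701 and POX_c04708, were the 10 members with a mean under 1 FPKM. Of these, 7 were listed at 0 in all 6 libraries. The exceptions were POX_c04710, at 3.66 FPKM in Δ*rsrC* replicate 1 alone, POX_c04714, at 1.58 and 1.24 FPKM in Δ*rsrC* replicates 1 and 2 and listed at 0 elsewhere, and POX_c04717, at no more than 0.08 FPKM in any library. A value of 0 in a table without counts can also be a failed estimate, so these genes are described as listed at 0.

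The end of the stretch, POX_c04727 to POX_c04731, varied among the parental libraries in other ways. POX_c04727 was at 11.5 and 13.3 FPKM in parental replicates 1 and 2 and 32.3 FPKM in replicate 3, against 8.94, 7.53 and 6.04 FPKM in Δ*rsrC*. Replicate 3 was the high library here, although this gene directly follows POX_c04726. POX_c04728, the putative transcription factor gene, ran opposite to POX_c04726, at 11.98 and 8.69 FPKM in parental replicates 1 and 2, 35.3 FPKM in replicate 3, and 27.7, 36.0 and 20.2 FPKM in Δ*rsrC*. The lowest of the other 4 libraries was 1.63 times the higher of Δ*ku70* replicates 1 and 2 on FPKM + 1, under the 2-fold criterion in this direction, which 0 members and 0.302% of all tested genes met. By likeness of profile to POX_c04726, POX_c04728 ranked 8326th of 8604 genes.

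POX_c04731 followed yet another pattern. It was at 6.60, 39.5 and 47.5 FPKM in parental replicates 1, 2 and 3, against 3.60, 4.51 and 5.07 FPKM in Δ*rsrC*. Replicate 1 was the low library, and it was still above all 3 Δ*rsrC* libraries. The α-amylase gene *amy13A*, its neighbour, was at 134, 360 and 517 FPKM in the parent and at 569, 522 and 397 FPKM in Δ*rsrC*. Replicate 1 was the lowest of the parental libraries in both genes, but the Δ*rsrC* libraries were low in POX_c04731 and high in *amy13A*. POX_c04729 and POX_c04730 were abundant and steadier, at 990.6 to 1504 FPKM over the 6 libraries and, for POX_c04730, at 585, 582 and 708 FPKM in the parent and 249, 318 and 276 FPKM in Δ*rsrC*.

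**Figure D4:**
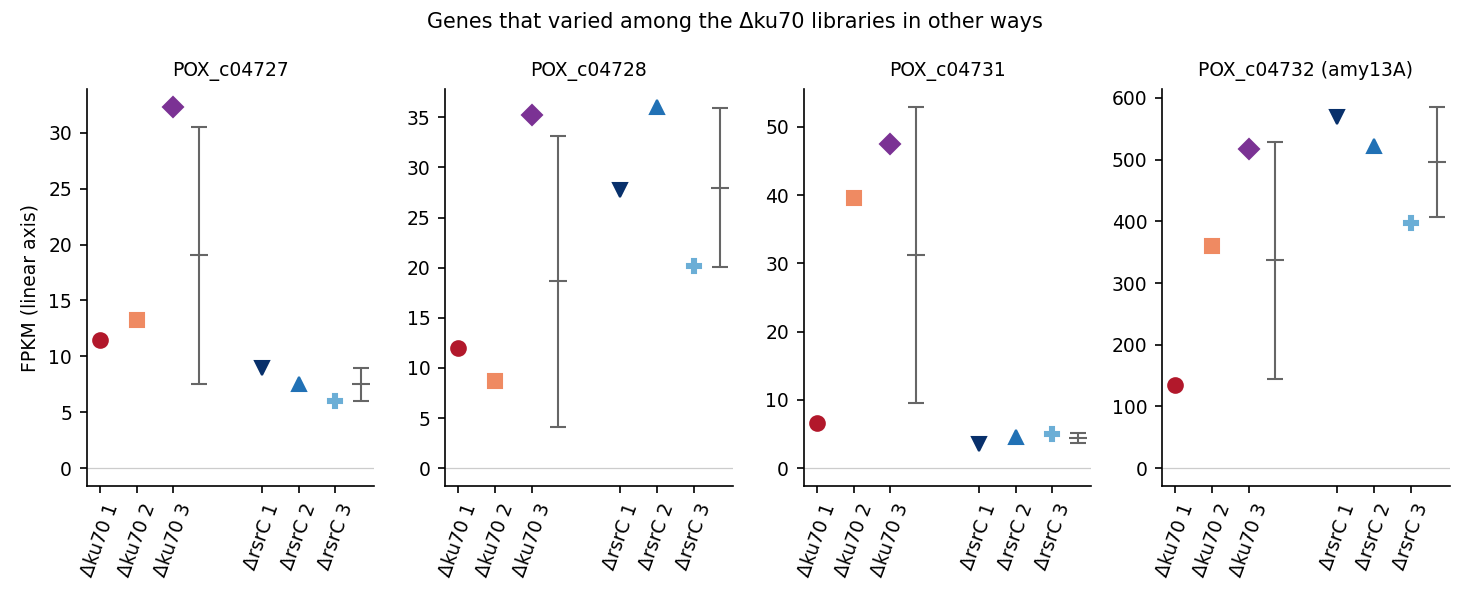
FPKM (linear axis from 0, its own scale in each panel) in each library of POX_c04727, POX_c04728, POX_c04731 and the adjoining *amy13A* (POX_c04732), with the mean ± SD of the 3 libraries of a strain as a grey bar beside them. Δ*ku70* replicate 3 is the highest parental library in all 4 panels. Among the parental libraries, replicate 1 alone is low in POX_c04731 (6.60 FPKM) and *amy13A* (134 FPKM). In POX_c04731 the Δ*rsrC* libraries are lower still (3.60 to 5.07 FPKM).

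Spread among replicates was then counted for each strain. In Δ*ku70*, 8 of the 22 members had a highest library at least 2 times the lowest on FPKM + 1 (36.4%, against 10.5% of all tested genes), and all 8 lay from POX_c04719 onward. They were POX_c04719, POX_c04723 to POX_c04728 and POX_c04731. In Δ*rsrC* it was 1 of 22, POX_c04726 (4.55%, against 6.39%). The stretch was chosen for a difference among the Δ*ku70* libraries, so nothing is read from the share in that strain. The spread of POX_c04719 was 31.2-fold in Δ*ku70* and 1.53-fold in Δ*rsrC*, and that of POX_c04726 17.6-fold and 2.43-fold. Without Δ*ku70* replicate 3 the count in Δ*ku70* was 1, POX_c04731. The share of all tested genes was not counted for that case, so nothing is read from it. The libraries are of whole mycelium, so a change in the share of cells that transcribe a gene and a change in transcript per cell cannot be told apart. Culture and RNA handling per library are not given in the sources used here, and their part in the spread was not tested.

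The 32 genes held 1.06% and 1.24% of all FPKM in parental replicates 1 and 2, 0.33% in replicate 3 and 0.216% to 0.228% in Δ*rsrC*. POX_c04719, POX_c04723 and POX_c04726 together held 0.816% and 1.01% in the first 2 libraries, 0.0556% in Δ*ku70* replicate 3 and 0.0202% to 0.0366% in Δ*rsrC*. The other 29 members summed to 3140.0, 2966 and 3611 FPKM in the parent and to 2907 to 2955 FPKM in Δ*rsrC*. The higher sum of Δ*ku70* replicates 1 and 2 thus lay mainly in the 3 genes. The other 29 members were highest in Δ*ku70* replicate 3, above every Δ*rsrC* library. All FPKM of a library summed to 1274812 to 1317078 in the parent and 1493556 to 1536317 in Δ*rsrC*. An equal FPKM is therefore a smaller share in Δ*rsrC*.

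The study's own comparison, Δ*rsrC* against Δ*ku70*, was fitted with limma over the 8605 genes. It uses the same libraries as the choice of the stretch, so the counts are descriptions. Of the 22 members, 7 were lower in Δ*rsrC* at an adjusted p-value under 0.05 (31.8%, against 25.6% of all tested genes) and 1 was higher (4.55%, against 13.8%). The lower ones were POX_c04700, POX_c04709, POX_c04718, POX_c04725, POX_c04726, POX_c04730 and POX_c04731, and the higher one was POX_c04707. Of the 3 genes with the shared pattern POX_c04726 alone was among them, with a log2 change of -4.00 (SE 1.05). POX_c04719, with a log2 change of -3.66 (SE 1.23), and POX_c04723, with -1.38 (SE 0.64), did not pass, although POX_c04719 did with TPM scaling. The calls that held in all 13 alternative fits, each library left out in turn included, were those of POX_c04707, POX_c04709, POX_c04725 and POX_c04730. POX_c04726 passed in 1 of the 6 fits that left out a library, the one without Δ*ku70* replicate 3, where its log2 change was -5.32. In that fit POX_c04719 (log2 change -5.26), POX_c04723 (-2.20), POX_c04724 (-1.04), POX_c04727 (-0.67) and, as higher, POX_c04728 (1.33) passed as well. POX_c04727, whose high library is the one left out there, also passed without Δ*ku70* replicate 1. POX_c04731 kept its call in 1 of the 6 fits, the one without Δ*ku70* replicate 1, POX_c04700 in the one without Δ*ku70* replicate 3, and POX_c04718 in the one without Δ*rsrC* replicate 1. By values alone, 10 members did not overlap between strains with Δ*rsrC* lower (45.5%, against 35.2% of all tested genes), and 1, POX_c04707, with Δ*rsrC* higher (4.55%, against 19.4%).

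The count of lower members depended on single libraries. Omitting Δ*ku70* replicate 1 left 5, with 18.2% of all tested genes lower in that fit, and omitting Δ*ku70* replicate 2 left 3 (18.7%). Omitting Δ*rsrC* replicate 1 left 4 (15.9% of all tested genes), omitting replicate 2 left 3 (17.6%) and omitting replicate 3 left 3 (18.3%). The share over all tested genes thus fell from 25.6% in each of these fits as well. Without Δ*ku70* replicate 3, 9 members were lower and 2 higher (25.7% and 14.8% of all tested genes). The counts also moved with scaling, which shifted the median log2 change over the 8605 genes from -0.13 to -0.35 after rescaling to equal sums (TPM) and to 0.00 after median-ratio scaling. With TPM, 11 members were lower and 1 higher (42.5% and 8.62% of all tested genes). With median-ratio scaling, 5 were lower and 1 higher (17.3% and 18.9%), and with quantile normalization 6 and 2 (17.2% and 16.0%). The median log2 change of the members minus that of all tested genes was -0.20 to -0.26 under these 4 scalings.

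The 10 gene numbers on each side gave no further gene with the pattern. Of the 17 tested genes among them, 0 met the 2-fold criterion in either direction. On the lower side the study annotates POX_c04697 as a Zn2Cys6 transcription factor gene and POX_c04698 as a gene of glycoside hydrolase family 18, the family of many chitinases. POX_c04697 was at 23.8, 26.5 and 30.8 FPKM in the parent and 16.5, 15.2 and 14.7 FPKM in Δ*rsrC*, and POX_c04698 at 4.71, 11.2 and 7.69 FPKM in the parent and 1.28, 1.41 and 0.59 FPKM in Δ*rsrC*. On the upper side POX_c04734 was at 19.7, 31.0 and 12.1 FPKM in the parent and at 118, 45.7 and 160 FPKM in Δ*rsrC*. Of the 17 genes, 4 were lower and 5 higher in Δ*rsrC* by limma (23.5% and 29.4%), against the shares given above. The 2-fold spread within Δ*ku70* was met by 4 of the 17 (23.5%, against 10.5% of all tested genes), POX_c04694, POX_c04698, *amy13A* and POX_c04734.

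Genes with the pattern also lay elsewhere in the genome. In all, 43 of the 8605 genes met the criterion, 40 of them outside the stretch and spread over 8 chromosome letters, 7 of them on letter c. POX_c04726 and POX_c04719 were the highest 2 of the 43 by the mean of Δ*ku70* replicates 1 and 2, at 8591 and 2522 FPKM, and the highest outside the stretch was at 884 FPKM. By separation POX_g08558 ranked 1st, POX_c04719 2nd, POX_c04726 3rd and POX_c04723 14th. In windows of 32 consecutive gene numbers the stretch held 3, and no window apart from it held more than 2, which 96 of 9605 such windows did. The stretch was selected for this pattern in the same libraries, so nothing is read from that difference. Consecutive numbers occurred in 2 cases outside, POX_b01935 with POX_b01936 and POX_g09214 with POX_g09215, named after their values were seen. POX_b01936 was at 574, 725 and 138 FPKM in the parent and at 111, 74.0 and 135 FPKM in Δ*rsrC*. POX_g09215 was at 94.8, 134 and 4.57 FPKM in the parent and at 19.2, 11.6 and 26.4 FPKM in Δ*rsrC*.

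The count of 40 rests on the libraries it is read from. Omitting Δ*ku70* replicate 1, 2 or 3 raised it to 189, 63 or 262, and omitting Δ*rsrC* replicate 3 to 70, since each omission removes a condition. Within the stretch the count was 5 without Δ*ku70* replicate 3 and 3 or 4 in the other 5 cases. With only the comparison inside the parent, Δ*ku70* replicates 1 and 2 at least 2-fold over replicate 3, 4 members met the criterion (18.2%, against 1.86% of all tested genes), POX_c04724 being added. In the reverse direction POX_c04727 and POX_c04728 did (9.09%, against 1.27%). The stretch was selected on these same libraries, so nothing is read from these shares.

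Likeness to POX_c04726 was measured over the 6 libraries as the root-mean-square difference of log2(FPKM + 1) after subtraction of each gene's mean. POX_c04719 was the closest of the 8604 other tested genes, at 0.397. The next, POX_g08558, at 0.618, was at 24.4 and 26.5 FPKM in parental replicates 1 and 2 and listed at 0 in the other 4 libraries. POX_d05857, at 0.825, was at 60.9, 154.5 and 6.48 FPKM in the parent and at 3.63, 4.16 and 7.34 FPKM in Δ*rsrC*. The other genes among the 10 outside the stretch that were most alike, POX_h09911, POX_a00765, POX_f07451, POX_f08390, POX_h09744, POX_c03702, POX_c04349 and POX_e07032, differed by 1.01 to 1.22. All 10 met the 2-fold criterion, and 6 of them were lower in Δ*rsrC* by limma, against 0.5% and 25.6% of all tested genes. These 10 were chosen by likeness over the same libraries, so nothing is read from these counts. POX_c04723 ranked 28th, at 1.43, POX_c04725 128th and POX_c04724 401st.

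**Figure D5:**
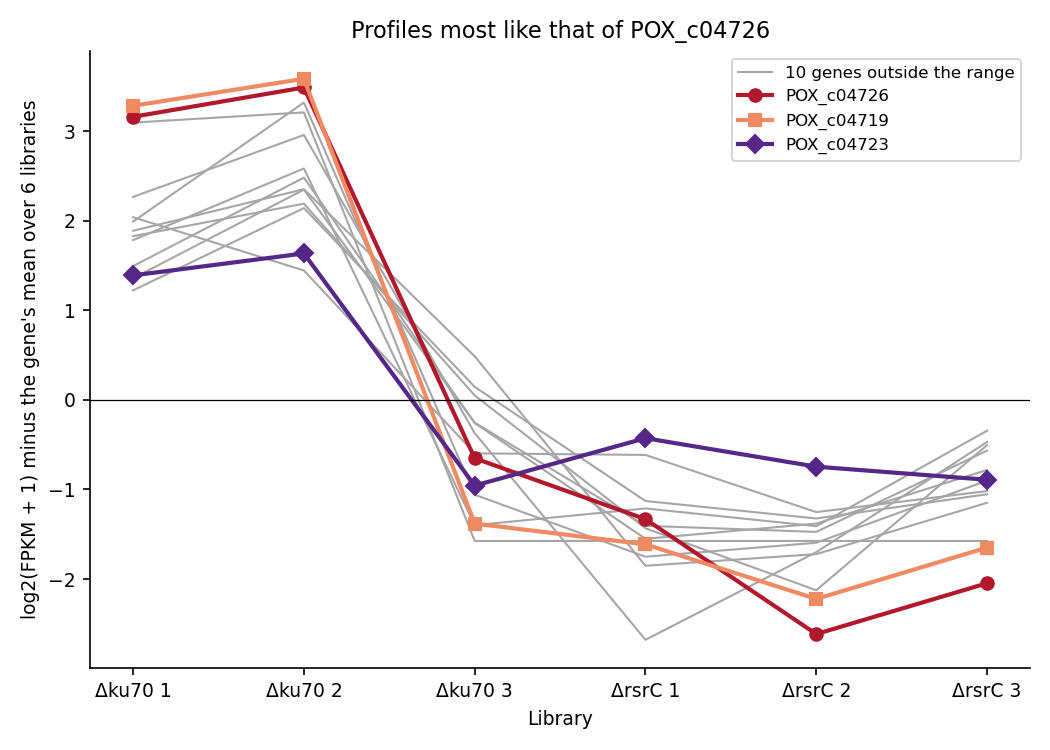
log2(FPKM + 1) minus the mean of the gene over the 6 libraries, for POX_c04726, POX_c04719 and POX_c04723 (coloured) and for the 10 genes outside the stretch with the most alike profiles (grey), by library. The lines join the libraries of 1 gene and stand for no order in time. POX_c04719 runs closest to POX_c04726, and the lines of all 13 genes drop between Δ*ku70* replicate 2 and replicate 3.

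Of the 8 amylolytic genes that the study lists, 0 met the criterion, and of the 6 regulators *amyR*, *cxrC*, *creA*, *rsrA*, *rsrB* and *brlA*, 0 did. The criterion was met by 0.5% of all tested genes, so nothing is read from these counts. *amyR*, the gene of the activator of amylase genes, was at 53.2 to 61.0 FPKM in the parent and 42.0 to 50.5 FPKM in Δ*rsrC*. *brlA*, the central regulator of conidiation, was at 0.81 to 1.71 FPKM in the parent and 0.42 to 1.59 FPKM in Δ*rsrC*, low in all 6 libraries of labelled mycelium.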

How the data were processed

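Polyadenylated RNA of 6 mycelium libraries, 3 per strain, was sequenced on the BGISEQ platform. The study names BWA, Bowtie2 and RSEM, and the submitters' processing notes name bcl2fastq and HISAT2. The reference was that of strain HP7-1. Which assembly version the tables use, and whether strand was used, are not given in the sources used here. The authors deposited FPKM for 9822 genes, 1 table per library, rounded to 2 decimals. Groups and replicate numbers came from the sample titles.

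Values were transformed as log2(FPKM + 1). The 8605 genes whose mean reached 1 FPKM were fitted with limma (version 3.58.1 in R 4.3.3, eBayes with an intensity trend, no covariate) in place of NOISeq, with two-sided p-values adjusted by the Benjamini-Hochberg method. The fit was tested on simulated data. A log2 change on this scale understates the change of low genes. FPKM carries no counts, so no counting interval or detection floor is given.

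The members, lists and criteria were chosen with earlier results of these data known. The counts of spread among replicates were added after the values were seen. Named genes were the 32 members, 10 gene numbers on each side, the lists of the study, the deleted gene and the 10 genes most like POX_c04726, with exceptions marked. The RefSeq table (ASM172317v3) matched 9718 of 9822 IDs and was used for names and gene order. It holds no product names, and the tables name no assembly version, so no coordinates are given. Alternatives were another pseudocount, no filter, 3 scalings, no trend, other separations, a replicate block and each library left out.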

Additional observations from a re-analysis of the deposited data

How the results depend on the processing

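At a separation above 1 in place of 2, 6 members and 1649 genes outside met the criterion, with a run of 4 members. At 4 and 8 the counts outside were 8 and 1. The spread criterion was met by 4 and 2 members in Δ*ku70* at 4-fold and 8-fold, and by 0 in Δ*rsrC* at both. With no filter on low genes 3 members met it in Δ*rsrC*. For spread, the share of all tested genes was not counted at these settings or with a library left out. Nothing is read from these counts of spread. With TPM rescaling 11 members were lower and the median member change was -0.56. With median-ratio scaling that median was -0.20, and with quantile normalization 2 members were higher. TPM and median-ratio scaling multiply each library by 1 factor. For quantile normalization the cause was not tested. Without POX_c04726 the members' share of all FPKM in Δ*ku70* replicates 1 and 2 was 0.481% in place of 1.15%. With each library left out in turn, the members with the pattern numbered 3 to 5, those outside 44 to 262, the longest run 1 to 2, the members with 2-fold spread 1 to 8 in Δ*ku70* and 0 to 1 in Δ*rsrC*, the lower members 3 to 9, the higher members 1 to 2 and all genes called 2126 to 3476, against 3386. The separations of POX_c04719 (25.3 to 31.2), POX_c04726 (14.0 to 22.5) and POX_c04723 (3.52 to 4.39) stayed above 2 in these, while POX_c04725 passed 2 without Δ*ku70* replicate 1 or 3 and POX_c04724 without Δ*rsrC* replicate 1.

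Same-numbered libraries of the strains did not deviate together (correlations over genes of 0.00464, -0.131 and -0.236). These values cannot show whether same-numbered libraries were grown or handled together. With the replicate number as a block, 2213 genes were called, and among the members 5 were lower and 1 higher (16.6% and 9.12% of all tested genes).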

Other observations

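Genes of starch breakdown differed in which Δ*ku70* library was lowest. Of the 8 amylolytic genes of the study, 4 were lowest in replicate 1, 2 in replicate 2 and 2 in replicate 3. The glucoamylase gene *PoxGA15A* (POX_a00573) had 773, 1151 and 1473 FPKM in parental replicates 1, 2 and 3, and the glucoamylase gene POX_b02418 had 369, 535 and 872 FPKM. Replicate 3 was the highest in both, as it was in *amy13A* and POX_c04731. The α-glucosidase gene POX_e06687 had 23.2, 19.9 and 13.4 FPKM, lowest in replicate 3. Of the 3 genes tied to spores, the *rodA*-like gene POX_a00279 (87.1, 121 and 146 FPKM) and *rodB* (66.7, 87.0 and 83.4 FPKM) were lowest in replicate 1, and *brlA* (0.88, 0.81 and 1.71 FPKM) in replicate 2. These are values only, and their relation to the stretch was not tested.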
